A study of Mus musculus with 15 samples.

Results

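Acetylation of histone H3 at lysine 27 (H3K27ac) was compared between eosinophils grown from mouse bone marrow and neutrophils. An eosinophil region was a stretch called in both BALB/c eosinophil H3K27ac libraries after overlapping peaks had been joined, which gave 17787 regions. A neutrophil region was a peak of the single neutrophil H3K27ac list, which held 21838. Regions of the 2 cell types that overlapped by at least 1 bp were called shared and the rest private. This gave 12324 shared eosinophil regions, 5463 regions private to eosinophils and 9579 private to neutrophils, together 27366 of the 76987 joined H3K27ac regions of all eosinophil, neutrophil, immature granulocyte and macrophage lists of the series. Each set was split by H3K4me3: a region touching an H3K4me3 region called in both BALB/c eosinophil libraries was called promoter-like, and any other was called distal. H3K4me3 of neutrophils was not analysed here, so a promoter marked in neutrophils alone counts as distal.

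The eosinophils (bmEos) came from unselected marrow progenitors of BALB/c mice. The cells were kept in culture for 14 days, with stem cell factor (SCF) and FLT3-L at 100 ng/mL each on the opening days and then with IL-5 at 10 ng/mL. For BALB/c cells there were 2 libraries each of H3K27ac, H3K4me3, H3K4me1, ATAC-seq and RNA-seq and 1 of PU.1, and for C57 cells (strain label BL6/57), cultured in the same way, 2 libraries of H3K27ac. The ChIP protocol was ChIPmentation, which uses a transposase to attach adapters to the precipitated chromatin. The neutrophil lists for H3K27ac and PU.1, 1 each, come from the outside data sets that the series re-analysed, and the strain, age, state and protocol of those cells are, in the sources used here, not given. Cell type, laboratory, protocol and depth therefore cannot be told apart in any difference below. The labels do not say whether the 2 eosinophil libraries came from separate cultures. With 2 libraries against 1 no test over libraries could be run on a share, and regions are not replicates, so each share is a description with a 95% Wilson interval that covers counting error over regions only.

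H3K27ac is laid down by the acetyltransferases p300 and CBP and marks active promoters and enhancers. H3K4me3 marks promoters, and H3K4me1 without H3K4me3 is typical of enhancers. Eosinophils and neutrophils are both granulocytes that descend from myeloid progenitors in the marrow. PU.1 is an ETS-family transcription factor needed for myeloid development, and it binds enhancers together with partners such as the C/EBP factors. Eosinophil development depends in addition on GATA1.

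Before the regions are compared, the lists themselves differed in strength. The eosinophil H3K27ac lists held 20467 and 23203 peaks with a median score of 28 in both, where the score is 10 times the −log10 q value that the authors' caller gave the peak. The neutrophil list held 21838 peaks with a median score of 74. Median peak width was 798 and 875 bp in eosinophils and 1019 bp in neutrophils. The PU.1 lists differed as well, with 62236 eosinophil peaks at a median score of 90 and 100426 neutrophil peaks at a median of 230. Of the 24785 joined eosinophil H3K27ac regions 71.8% were called in both libraries, 1728 in replicate 1 only and 5270 in replicate 2 only. The BALB/c RNA libraries (40306679 and 30465490 counts over 25101 genes) carried the labelled cell type's markers: 9 of 9 eosinophil genes reached 1 CPM, with a summed level of 13226 and 13478 CPM, led by Prg2, the major basic protein of the granules (3910 and 4195 CPM), and Epx, the eosinophil peroxidase (2883 and 2649 CPM). Markers listed for other cells were detected as well. All 13 of 13 neutrophil markers were detected, at 2361 and 2054 CPM in sum, and 6 of 7 macrophage and monocyte markers at 3560 and 3952 CPM, with Marco at 0 in both. Stromal markers summed to 2250 and 589 CPM, and lymphoid markers to 7.29 and 8.04 CPM. Whether this RNA came from other cells or from the eosinophils themselves was not tested, and bulk counts cannot tell. The part of other cells in the sharing of regions was not tested either.

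Most acetylated regions of eosinophils were acetylated in neutrophils too, and sharing was more frequent at promoter-like than at distal regions. Of the 17787 eosinophil regions, 12324 or 69.3% (68.6 to 70.0) were shared. Taking the peaks of either eosinophil library by itself gave 65.5% for replicate 1 and 60.6% for replicate 2, both below the value for regions called in the 2 together. Regions called in only 1 eosinophil library were shared less, at 31.5%. Seen from the neutrophil side, 12259 of 21838 peaks or 56.1% (55.5 to 56.8) were shared. The calling threshold moves both values: when peaks with a −log10 q under 5 were dropped, only 2904 eosinophil regions were left against 14185 neutrophil regions, and the shares became 87.4% and 18%. A region private to neutrophils is thus one not called in both eosinophil libraries at their strength, not one shown to lack acetylation. The share with neutrophils was not the highest among the outside lists. Of the 17787 eosinophil regions, 75.3% met an immature granulocyte peak and 82.6% a macrophage peak. Those lists hold more peaks, 36357 and 59401. By the length covered by both lists divided by that covered by either, given below, the neutrophil list came first.

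The split by H3K4me3 separated the regions. Of the 12000 promoter-like eosinophil regions 9248 or 77.1% (76.3 to 77.8) were shared. Of the 5787 distal ones 3076 or 53.2% (51.9 to 54.4) were shared, which is 23.9 percentage points lower. Among neutrophil regions the contrast was wider, with 9306 of 10258 promoter-like regions shared (90.7%, 90.1 to 91.3) against 2953 of 11580 distal regions (25.5%, 24.7 to 26.3). The split rests on eosinophil H3K4me3 alone, so promoter-like neutrophil regions are marked in eosinophils by definition. Promoters marked in neutrophils alone count as distal. The part of this rule in the neutrophil contrast and in the make-up of the private sets was not tested. At a −log10 q of 5 or more the neutrophil shares fell to 30.5% and 1.01%. Private sets accordingly differed in make-up. The eosinophil-private set was divided almost evenly, with 2752 promoter-like and 2711 distal regions, whereas the neutrophil-private set held 952 promoter-like and 8627 distal regions. Over all 27366 regions H3K4me3 was present at 47.3%.

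**Figure D1:**
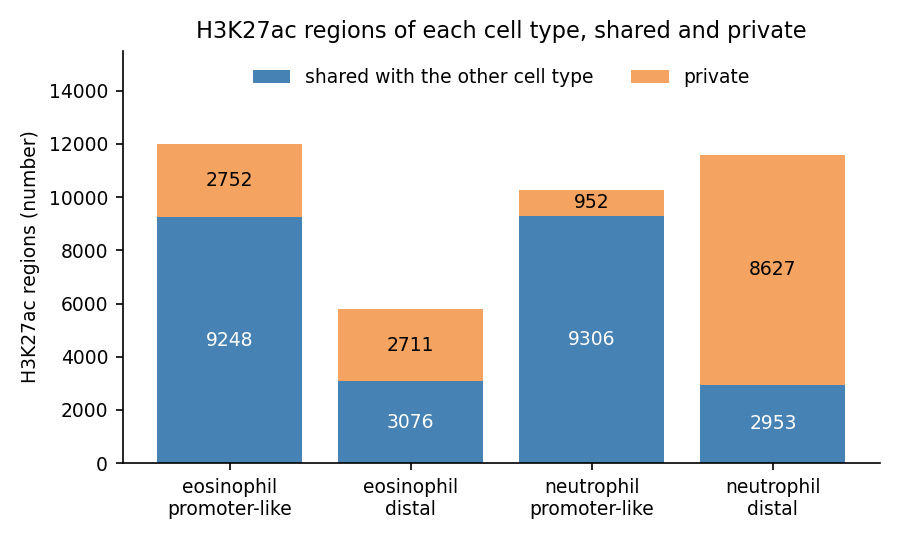
Number of H3K27ac regions (vertical axis) of each cell type, split by eosinophil H3K4me3 into promoter-like and distal; the lower part of a bar is shared with the other cell type and the upper part is private. The 8627 private distal regions of neutrophils outnumber the 2711 of eosinophils, while shared promoter-like regions make up the largest block in either cell type.

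A part of the neutrophil-private set fell just short of the rule. Of its 9579 regions 1779 or 18.6% overlapped a peak of 1 eosinophil library. This held for 432 of the 952 promoter-like regions (45.4%) and for 1347 of the 8627 distal ones (15.6%). Leaving such regions out raised the gap between neutrophil and eosinophil PU.1 at the remaining distal regions from 37.0 to 41.3 percentage points.

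Sharing rose with peak score in every class. Regions of each cell type were ranked by score into 5 equal groups. Promoter-like eosinophil regions went from 52.4% shared in the lowest group to 93.2% in the highest, and distal ones from 46.8% to 69.5%, the latter over 131 regions. For neutrophils the rise was from 76.9% to 97.7% at promoter-like regions and from 14.1% to 56.2% at distal ones. Promoter-like regions were shared more than distal regions within each of the 5 groups in both cell types. For neutrophil regions this again rests on a split by eosinophil H3K4me3. In the lowest eosinophil group the difference was small, at 52.4% (49.6 to 55.2) against 46.8% (44.8 to 48.9). Among the highest-scoring distal neutrophil regions, 470 of 1074 still had no counterpart in the eosinophil set.

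**Figure D2:**
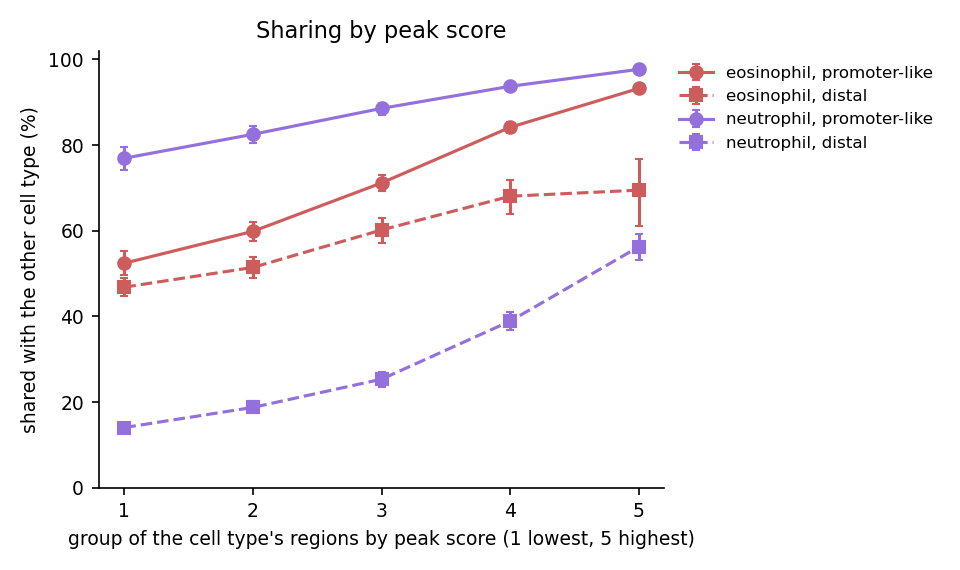
Share of regions with a counterpart in the other cell type (vertical axis, %) by score group within each cell type (horizontal axis, 1 lowest and 5 highest score); bars are 95% Wilson intervals over regions. All 4 lines climb with score, and distal neutrophil regions stay lowest, from 14.1% to 56.2%.

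PU.1 was present at most acetylated regions in both cell types and differed between the sets according to the cell type that carried the acetylation. Over all 27366 regions, 75.0% overlapped an eosinophil PU.1 peak, 76.4% a neutrophil PU.1 peak and 62.2% both. Shared distal regions lay above each of these values. Counted on the eosinophil side, 2637 of 3076 (85.7%, 84.5 to 86.9) carried eosinophil PU.1, 2779 (90.3%, 89.3 to 91.3) carried neutrophil PU.1, and 82.2% carried both.

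Distal regions private to eosinophils kept PU.1 in eosinophils more than in neutrophils. Eosinophil PU.1 was called at 2024 of 2711 (74.7%, 73.0 to 76.3), close to the 75.0% over all regions, and neutrophil PU.1 at 1277 (47.1%, 45.2 to 49.0). The shared distal regions exceeded them by 11.1 percentage points for eosinophil PU.1 and by 43.2 for neutrophil PU.1. The former was larger when a region did not have to be called in both libraries. It was 17.0 with the peaks of replicate 1 alone and 18.8 with those of replicate 2 alone. The latter was 44.5 and 44.9. Peaks of both cell types met at 43.9% of these private regions, eosinophil PU.1 stood by itself at 30.8% (834 regions) and neutrophil PU.1 by itself at 3.21% (87 regions). The remaining 22.1% had no PU.1 peak in either list, against 6.11% of shared distal regions. With only the higher-scoring 50% of each PU.1 list, both cell types met at 27.7% of the private regions.

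Distal regions private to neutrophils gave the mirror image. Neutrophil PU.1 was called at 7427 of 8627 (86.1%, 85.3 to 86.8) and eosinophil PU.1 at 4233 (49.1%, 48.0 to 50.1), a gap of 37.0 percentage points. Both were present at 47.9%, neutrophil PU.1 by itself at 38.2% (3298 regions) and eosinophil PU.1 by itself at 1.21% (104 regions). At a −log10 q of 10 or more for H3K27ac these became 74.5% for both and 23.4% for neutrophil PU.1 by itself. At that threshold 0% of distal neutrophil regions were shared, so these values describe all of them and not a private part. With 50% of each PU.1 list both were present at 31.5%. Since the neutrophil PU.1 list is longer, it was also trimmed to its 62236 highest-scoring peaks, the length of the eosinophil list. The gap at neutrophil-private distal regions then fell to 27.6 percentage points, and the gap between shared and eosinophil-private distal regions in neutrophil PU.1 rose to 49.0. Across the whole lists, 69.8% of eosinophil PU.1 peaks overlapped a neutrophil PU.1 peak and 46.0% of neutrophil PU.1 peaks overlapped one of eosinophils.

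**Figure D3:**
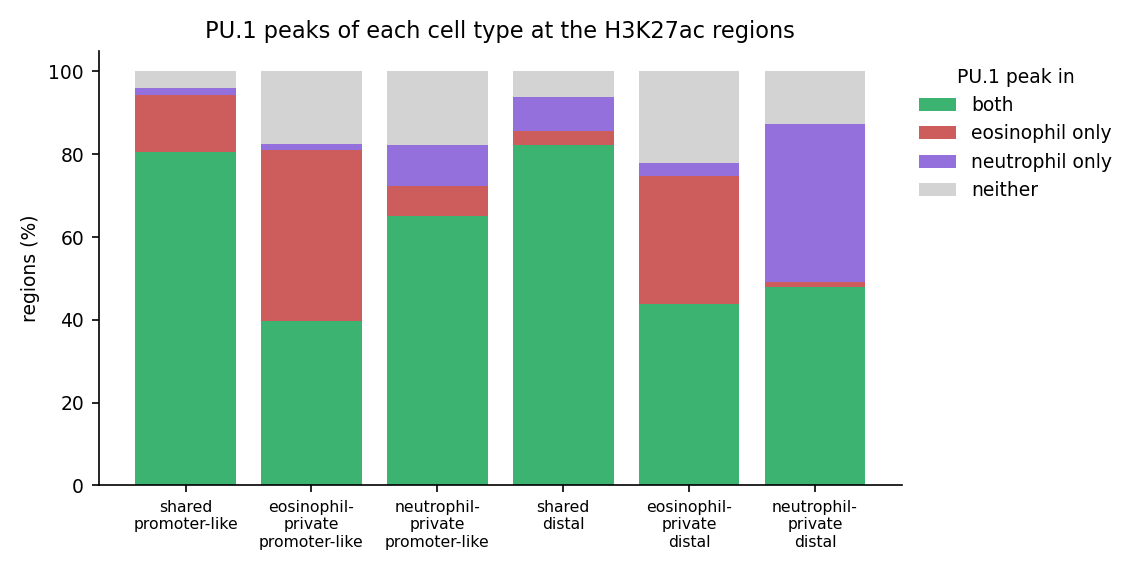
Share of H3K27ac regions (vertical axis, %) with a PU.1 peak in both cell types, in eosinophils only, in neutrophils only or in neither, for the 6 sets; shared sets are counted on the eosinophil side. PU.1 of both cell types covers over 80% of both shared sets, and PU.1 of a single cell type is mostly that of the acetylated cell type in the private distal sets, at 30.8% in eosinophils and 38.2% in neutrophils.

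Promoter-like regions followed the distal ones only in part. Shared promoter-like regions had eosinophil PU.1 at 94.3% and neutrophil PU.1 at 82.1%, the reverse of the order at shared distal regions (85.7% and 90.3%). The 2752 promoter-like regions private to eosinophils had 80.9% and 41.2%, with eosinophil PU.1 by itself at 41.2% (1135 regions) and neutrophil PU.1 by itself at 1.49%. The 952 promoter-like regions private to neutrophils did not show such a gap: eosinophil PU.1 was at 72.4% (69.5 to 75.1) and neutrophil PU.1 at 74.9% (72.0 to 77.6), intervals that overlap, and both at 65.1%. These regions carry eosinophil H3K4me3 by definition.

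Where both cell types had PU.1 in a region, the peaks nearly always overlapped. Overlapping eosinophil and neutrophil PU.1 peaks were found in 1180 of the 1190 eosinophil-private distal regions bound in both (99.2%) and in 4094 of the 4129 neutrophil-private distal ones (99.1%). Median PU.1 peak widths were 457 and 361 bp, in regions of a median 805 and 883 bp. The part of size in this overlap was not tested, and overlap alone does not show a common position. Peak scores differed between the sets. Neutrophil PU.1 at doubly bound distal regions had a median score of 1530 (quartiles 723 and 2317) where the acetylation was shared, 1429 (771 and 2169) where it was private to neutrophils and 456 (174 and 1119) where it was private to eosinophils. Eosinophil PU.1 had a median of 229 (122 and 365) at shared regions, 209 (121 and 341) at eosinophil-private and 136 (75 and 242) at neutrophil-private ones. In each list the PU.1 score was lowest where the other cell type carried the acetylation, and the quartile ranges overlapped. Scores are compared here within a list only.

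Counted per kilobase, the neutrophil PU.1 contrast was kept but that of eosinophil PU.1 between shared and eosinophil-private regions was not. Eosinophil-private distal regions averaged 0.915 eosinophil and 0.579 neutrophil PU.1 peaks per kb, shared distal regions 0.90 and 1.065, and neutrophil-private distal regions 0.545 and 1.104. Shared distal regions were wider, with a median of 977 bp against 805 bp for eosinophil-private ones, and the part of length in their higher share with eosinophil PU.1 was not tested.

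The PU.1 contrast was also present among regions of like H3K27ac score. In the lowest score group of distal eosinophil regions neutrophil PU.1 was at 84.5% of shared and 46.2% of private regions, and in the fourth group at 94.5% and 49.4%. Eosinophil PU.1 ran from 78.7% and 69.4% in the lowest group to 93.9% and 82.4% in the fourth. The highest group held 40 private regions, with 75.0% and 30.0% for eosinophil and neutrophil PU.1. For distal neutrophil regions, neutrophil PU.1 was close between shared and private regions of the highest group (99.2% and 97.7%), whereas eosinophil PU.1 was at 94.9% and 59.4%.

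**Figure D4:**
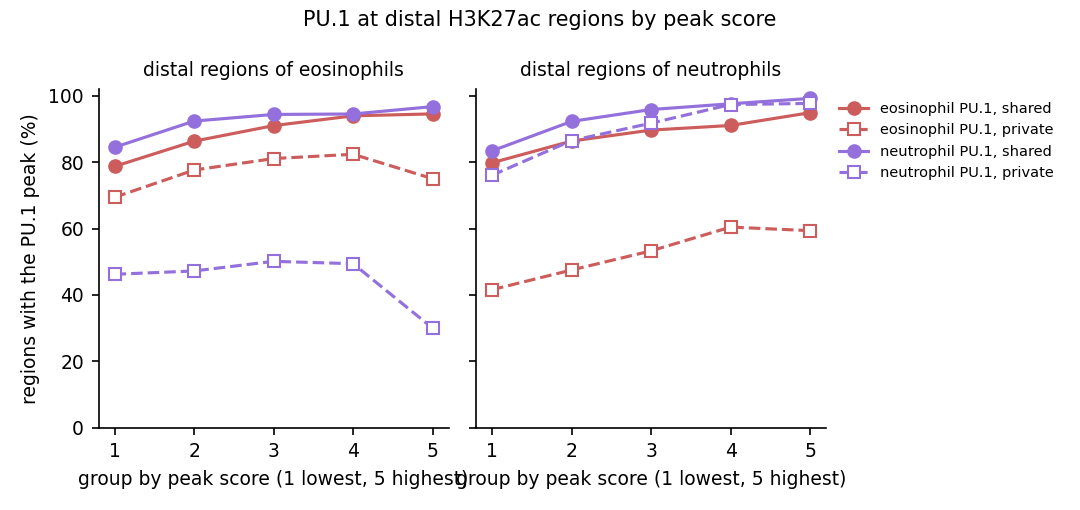
Share of distal regions with a PU.1 peak (vertical axis, %) by H3K27ac score group (horizontal axis, 1 lowest and 5 highest) for eosinophil regions on the left and neutrophil regions on the right; filled points are shared and open points private regions. The lowest line on each side is PU.1 of the cell type without the acetylation at private regions, between 30.0% and 50.1% on the left and between 41.6% and 60.4% on the right.

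Other chromatin readouts from the eosinophils graded the sets further. Open chromatin, taken as an ATAC region called in both BALB/c libraries, covered 63.8% of all regions. It was at 96.8% of shared and 85.8% of eosinophil-private promoter-like regions. At distal regions the shares were 71.1% (69.4 to 72.6) for shared, 51.4% (49.5 to 53.3) for eosinophil-private and 21.9% (21.1 to 22.8) for neutrophil-private ones. The neutrophil-private promoter-like regions were open in eosinophils at 72.1%. H3K4me1, present at 22.1% of all regions, was at 48.5% (46.8 to 50.3) of shared and 46.8% (44.9 to 48.6) of eosinophil-private distal regions. The size of this difference was not stable: it was 1.76 percentage points here, 4.16 with the peaks of replicate 1 alone and 6.87 with those of replicate 2 alone. Its order turned over among peaks with a −log10 q of 5 or more, where only 96 distal eosinophil regions were left. At neutrophil-private distal regions H3K4me1 was at 17.2%, and at promoter-like sets between 12.9% and 17.6%.

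Combining readouts, 46.2% of eosinophil-private distal regions were open with eosinophil PU.1, 28.5% had eosinophil PU.1 without an open call, 5.24% were open without it and 20.1% had neither. Of the neutrophil-private distal regions 19.3% were open with PU.1 in eosinophils, 29.8% had PU.1 without an open call and 48.3% had neither. A group of 3304 neutrophil-private distal regions (38.3%) had no PU.1 peak and no ATAC or H3K4me1 region called in both libraries in BALB/c eosinophils, and no H3K27ac peak in any eosinophil library of either strain. In contrast 2109 (24.4%) had PU.1 in both cell types and no H3K27ac peak in any of the 4 eosinophil libraries.

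The C57 eosinophils offered a readout that had no part in defining the sets. Regions called in both C57 H3K27ac libraries covered 50.6% of all regions. They covered 93.0% of shared and 63.2% of eosinophil-private promoter-like regions, 59.7% (57.9 to 61.4) of shared and 32.7% (31.0 to 34.5) of eosinophil-private distal regions, and 5.84% (5.37 to 6.36) of neutrophil-private distal regions. The 2 C57 libraries differed widely: eosinophil-private distal regions were met by 32.1% in replicate 1, which has 14992 peaks, and by 74.2% in replicate 2, which has 27527. The order of the 3 distal sets was the same in both, since shared regions stood at 57.6% and 92.2% and neutrophil-private ones at 5.88% and 28.4%. Among eosinophil-private distal regions the share seen again in C57 cells was 22.3% in the lowest score group, 56.5% in the fourth and 50.0% in the highest, which held 40 regions.

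Acetylation in other myeloid cells was read from the outside lists of immature granulocytes (36357 peaks) and bone-marrow-derived macrophages (59401 peaks). Over all regions these were met by 60.5% and 71.3%. Shared distal regions stood at 69.0% and 75.5%, eosinophil-private distal regions at 35.3% and 41.5%, and neutrophil-private distal regions at 30.7% and 46.7%. Neither list had a peak at 12.3% of shared, 44.1% of eosinophil-private and 43.1% of neutrophil-private distal regions. Promoter-like private regions were seldom without a counterpart, with neither list present at 12.1% of the eosinophil-private and 9.87% of the neutrophil-private ones. The neutrophil and immature granulocyte lists were no closer to each other than eosinophils were to the latter: the Jaccard index, the length covered by both lists divided by that covered by either, was 0.258 for that pair and 0.309 and 0.312 for the 2 BALB/c libraries with immature granulocytes.

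**Figure D5:**
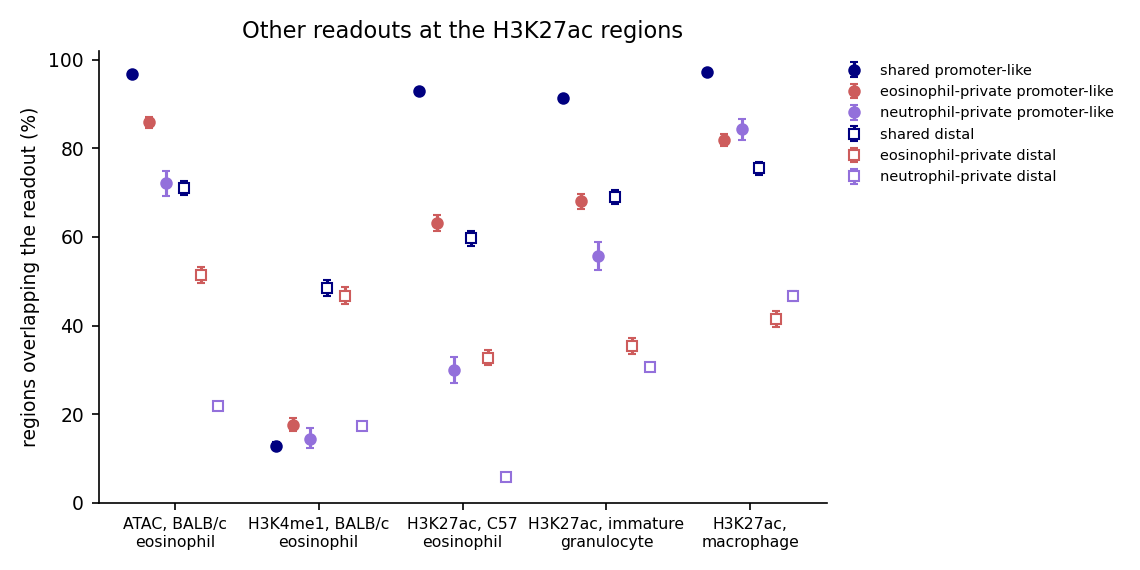
Share of regions (vertical axis, %) that overlap each of 5 readouts (horizontal axis) for the 6 sets; filled circles are promoter-like and open squares distal, and bars are 95% Wilson intervals over regions. Neutrophil-private distal regions are lowest for ATAC (21.9%) and C57 H3K27ac (5.84%), while shared and eosinophil-private distal regions sit side by side for H3K4me1 (48.5% and 46.8%).

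By Jaccard index the BALB/c libraries were closer to each other (0.650) than to the neutrophil list (0.340 and 0.355). The difference of 0.302 between the within-eosinophil value and the mean of the others was the highest of the 3 ways to name 1 of the libraries as the odd list, which gives a one-sided exact permutation p of 0.333, the smallest this design allows. With the C57 libraries added, eosinophil lists still lay closer to each other by 0.17 on average, with an exact p of 0.2, again the smallest possible. The C57 pair reached only 0.453 within itself and 0.321 and 0.378 with neutrophils. With immature granulocytes the 2 BALB/c libraries had 0.309 and 0.312, and with macrophages 0.24 and 0.267. These lay below their values with neutrophils.

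The single regions given next were picked as extremes of their sets by fold or width and are not typical members. Shared promoter-like regions had a median width of 1340 bp and median scores of 39 and 44 in the eosinophil libraries. For eosinophil-private promoter-like regions these medians were 936 bp, 27 and 29. Positions are in mm9, and no gene is given because no annotation of that build was used here. The promoter-like regions of highest fold enrichment were narrow and had high scores. Among shared promoter-like regions, chr6:103598936-103599471 had scores of 689 and 1135 in the eosinophil libraries and 1099 in neutrophils, and chr12:3109692-3110276 had 1015, 1262 and 1403. Among eosinophil-private ones, chr11:121843490-121843906, which is 417 bp wide, had 479 and 412 and PU.1 in both cell types, and it was acetylated in C57 eosinophils, immature granulocytes and macrophages. The 3 neutrophil-private ones of highest fold were led by chr2:38781863-38782344, with a neutrophil score of 496. Each of them overlapped a peak of 1 eosinophil library. The part of repeated sequence in such peaks was not tested.

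Distal regions named by the same rule were weaker. The eosinophil-private region chr19:61000387-61000877 had scores of 200 and 137 in the 2 libraries, was open, carried H3K4me1 and 1 eosinophil PU.1 peak and none of neutrophils. Another, chr5:149119066-149119541, had 104 and 187. The neutrophil-private region chr6:103264396-103264908 scored 258 in neutrophils, with 1 neutrophil PU.1 peak and none of eosinophils, and yet it met peaks in both C57 libraries. So did the next 2 by fold, chr5:37051867-37052620 (score 313) and chr4:126692664-126693279 (232). Each of these had 1 eosinophil PU.1 peak and met a macrophage peak. Over all neutrophil-private distal regions 5.84% met a region called in both C57 libraries. The shared distal region of highest fold, chr8:27079826-27080606, had scores of 293 and 474 in eosinophils and only 36 in neutrophils.

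The widest regions, chosen after their values were seen, are given next. At chr6:53104016-53107232, 3217 bp wide and private to eosinophils, scores were 51 and 38, with 2 eosinophil PU.1 peaks, none of neutrophils, open chromatin, H3K4me1 and both C57 libraries. It met an immature granulocyte peak but no macrophage peak. A second on the same chromosome, chr6:72429196-72432221 (3026 bp), scored 25 and 43, again with 2 PU.1 peaks in eosinophils and none in neutrophils, and was acetylated in neither immature granulocytes nor macrophages. The third, chr6:89206174-89209102 (2929 bp), scored 35 and 45. It had 3 eosinophil and 2 neutrophil PU.1 peaks and was acetylated in both immature granulocytes and macrophages. The widest shared distal region, chr3:50409522-50412692 (3171 bp), scored 32 and 32 in eosinophils and 73 in neutrophils and was marked in every readout. The widest neutrophil-private distal region, chr2:72280532-72284966 (4435 bp), scored 72, with 3 neutrophil PU.1 peaks and 1 of eosinophils, no ATAC or H3K4me1 region and a peak in C57 replicate 2 but not in replicate 1.

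The strictest description of a private region left few in eosinophils and many in neutrophils. Only 106 of 2711 eosinophil-private distal regions (3.91%) were open, had eosinophil PU.1 and no neutrophil PU.1, were acetylated in both C57 libraries and were absent from the immature granulocyte and macrophage lists. By fold these were led by chr2:173533012-173533409 (scores 27 and 34), chr7:126978584-126979915 (54 and 78) and chr10:58882270-58883322 (43 and 41), and all 3 carried H3K4me1. On the neutrophil side 2483 of 8627 distal regions (28.8%) had neutrophil PU.1 by itself, no ATAC or H3K4me1 region called in both BALB/c libraries and no H3K27ac peak in any eosinophil library of either strain. The 2 descriptions use different readouts, so their shares are not to be set against each other.

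Some private regions lay next to others of their kind. Regions at most 12.5 kb apart were joined into 15879 domains, of which 5719 held at least 2 regions. Among the latter 887 held shared regions only, 320 eosinophil-private only and 849 neutrophil-private only, and 767 held both private kinds. Eosinophil-private distal regions were alone in their domain in 46.6% of cases, against 27.3% of neutrophil-private and 24.1% of shared distal regions. A further shared region stood in the same domain for 31.5%, 46.2% and 58.2%. The total number of regions differs between the cell types, which by itself changes how often a neighbour is found.

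The domain richest in eosinophil-private regions was chr17:86682788-86776560, with 10 of them, 1 shared region and no neutrophil-private one. Scores of the 10 private regions lay between 15 and 45 in replicate 1 and between 14 and 43 in replicate 2, with a median of 26 in both. All 11 regions carried eosinophil PU.1, 3 carried neutrophil PU.1, 7 were open and 9 were acetylated in both C57 libraries. The next 2 domains, chr4:88402648-88451960 and chr6:47600636-47636374, held 8 and 7 eosinophil-private regions, and each of their 15 and 9 regions was promoter-like. At the former all 15 also carried PU.1 of both cell types. H3K4me1 was at 8 of the 15 and at 7 of the 9 regions. The part of repeated sequence in these 2 domains was not tested.

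On the neutrophil side chr7:148127175-148234870 held 15 neutrophil-private regions among 19, with neutrophil scores between 25 and 198 and a median of 106. Neutrophil PU.1 lay at all 15 and eosinophil PU.1 at 10. Next came chr11:117797016-117862949, with 12 neutrophil-private regions among 16. At those 12, neutrophil PU.1 was found at 10 and eosinophil PU.1 at 6. The domain chr3:90462534-90513069 was made up of 11 neutrophil-private regions, all distal, with scores between 29 and 179. Neutrophil PU.1 was at all 11, eosinophil PU.1 at 2, ATAC at 1 and C57 H3K27ac in both libraries at none. Eosinophil PU.1 thus differed between these domains, with peaks at most neutrophil-private regions of the one on chromosome 7 and few of the one on chromosome 3.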

How the data were processed

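The deposited peak lists, 1 per library and in mm9 per the submitters' processing notes, give for each peak a score, a fold enrichment (a ratio) and a −log10 q value, all computed by the authors. The score is the whole part of 10 times the −log10 q, as tested on 228165 of 228170 peaks. For the peak caller and the depth behind the lists: not given in the sources used here. The notes name Bowtie2 2.3.4.1, bedtools 2.27.0 and HOMER without their roles. Counts per gene were deposited by the authors without normalization and were scaled to CPM by each library's total.

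Overlapping peaks of 2 replicates were joined and kept when both contributed, and overlap meant at least 1 bp. The work used Python 3.11.15 with pandas 2.3.3, numpy 2.4.6 and scipy 1.17.1, and the joining was tested on simulated intervals. Regions named by fold were taken from the 3 per set with the highest fold (for eosinophils the lower of the 2 libraries), leaving out chromosome 18 and unplaced sequence. Not all 3 are described for every set. Members, sets and lists were chosen with earlier results of these data known. Score groups, PU.1 scores, domains, widest regions and combined descriptions were added after values were seen. No genome or annotation of mm9 was used here.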

Additional observations from a re-analysis of the deposited data

How the results depend on the processing

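The main differences kept their sign under the alternatives that gave a value. The 2 shared shares have no sign to keep, and their order did turn over. The neutrophil share was the higher with regions of either library (64.3% against 58.6%) and without replicate 1 (62.4% against 60.6%). No paired analysis was possible because the neutrophil list is a single library and the shares come from no test. The shared share of eosinophil regions (69.3%) became 87.4% and 77.8% with −log10 q of at least 5 and 10, 58.6% with regions of either library and 76.1% with the C57 pair, and lay between 60.6% and 65.5% without 1 library. The share of neutrophil regions (56.1%) became 18%, 1.56%, 64.3% and 51.3% in that order, and 57.7% to 62.4% without 1 library. The promoter-like minus distal difference (23.9 percentage points) became 26.8, 80.1, 29.8 and 20.8, with 26.4 to 29.0 without 1 H3K27ac library, 23.6 to 23.9 without 1 H3K4me3 library and 25.9 when 50% of the shorter region had to overlap. The 80.1 rests on 5 distal eosinophil regions, of which 0% were shared. The same overlap gave 12.6 for the eosinophil PU.1 difference (main value 11.1) and 44.4 for the neutrophil one (43.2). Those 2 differences became 20.3 and 46.3 with regions of either library, 8.96 and 41.0 with the C57 pair, 15.4 and 49.7 with 50% of each PU.1 list kept by score, and 17.0 to 18.8 and 44.5 to 44.9 without 1 H3K27ac library. Without 1 H3K4me3 library they lay at 11.0 to 11.4 and 43.1 to 43.4. The neutrophil difference was 53.4 with −log10 q of at least 5, 42.7 with H3K27ac lists of equal length, 49.0 with PU.1 lists of equal length, 43.8 for regions beyond 2500 bp of H3K4me3 and 42.5 for PU.1 within 500 bp of the centre. The PU.1 gap at neutrophil-private distal regions (37.0) became 27.2 and 23.0 at the stricter thresholds, 41.3 with either library and also without regions met by 1 eosinophil library, 27.6 with PU.1 lists of equal length, 38.9 with 50% of each PU.1 list, 34.7 with the C57 pair, and 37.7 to 40.2 without 1 H3K27ac library and 37.1 to 37.6 without 1 H3K4me3 library. At those stricter thresholds 1.01% and 0% of distal neutrophil regions were shared, so those 2 values describe nearly all or all of them. The difference in H3K4me1 between shared and eosinophil-private distal regions turned from 1.76 to -6.18 percentage points at −log10 q of at least 5, and rose to 7.68 with either library, 4.55 with the C57 pair and 4.16 to 6.87 without 1 H3K27ac library. At 10 or more, with 171 eosinophil regions of which 5 were distal, the PU.1 differences at distal eosinophil regions gave no value, and no Jaccard value exists without 1 of 2 libraries. Depth is unknown, so a missing peak does not show a missing mark.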

Other observations

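Sharing differed between chromosomes. On the eosinophil side it ran from 63.5% (59.7 to 67.2) on chromosome 16 to 75.2% (71.6 to 78.4) on chromosome 19, and on the neutrophil side from 51.5% on chromosome 12 to 61.3% on chromosome 19. The domain with the most shared regions, chr9:3000026-3038321, held 14 shared and 3 neutrophil-private regions, with eosinophil PU.1 at all 17 and neutrophil PU.1 at 16, and macrophage H3K27ac at all 17. Nearly every readout met these regions, with ATAC at 17, H3K4me3 at 16 and H3K4me1 at 16. The part of repeated sequence in this domain was not tested. A second, chr17:35315679-35412176, held 12 shared regions beside 7 neutrophil-private distal ones, which carried neutrophil PU.1 at 7 and eosinophil PU.1 at 3.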
